A study of Mus musculus with 4 samples.

Results

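Transcripts of 48 genes of mitosis and the spindle checkpoint were followed in 4 tumors. The genes were listed by name, and a probe set was used if its annotation gave exactly 1 symbol and that symbol was on the list. Such probe sets were found for 45 of the 48, among 12393 genes measured in all. Cyclin B1 (Ccnb1), separase (Espl1) and the kinetochore gene Spc24 had none and were not analysed here. Where a gene had several probe sets, the probe set of highest mean signal stood for it. All 45 passed the filter on low values, as did 7846 of all 12393 genes.

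The tumors grew in nude mice (NCR Nu/Nu) after subcutaneous injection of immortalized baby mouse kidney epithelial cells (iBMK). All 4 came from cells that were ATG5-/- and expressed Bcl-2, so autophagy was genetically blocked and Bcl-2, an inhibitor of apoptosis, was present in controls and comparison tumors alike. In 2 tumors the cells expressed EGFP, and in 2 they expressed p62-EGFP, a fusion of the autophagy substrate p62 to the fluorescent protein. No treatment was given. Nude mice lack a thymus but keep macrophages, NK cells and other host cells, which contribute RNA to a whole tumor. The sources used here do not give the age of the mice, whether each cell line was a clone, or whether tumors 1 and 2 of a group grew in different animals or from different cultures. The p-values therefore measure the spread between these tumors, which may be technical.

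Entry into mitosis is driven by cyclin B bound to the kinase Cdk1, with the Aurora and Polo kinases building the spindle. The spindle checkpoint keeps the anaphase-promoting complex and its activator Cdc20 inactive until every kinetochore is attached. Once released, the complex marks cyclin B and securin for destruction, separase opens cohesin, and the central spindle directs cytokinesis. Most of these genes are transcribed late in the cell cycle, through promoters that bind NF-Y at CCAAT boxes and the MuvB complex at the cell cycle genes homology region (CHR). In tumors their mRNA levels are widely read as a measure of the fraction of cycling cells.

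Each tumor was measured on 1 Affymetrix array, and values are scaled MAS5 signals given for tumors 1 and 2 of a group in that order. Differences are p62-EGFP minus EGFP means of log2(signal + 16), with the standard error (SE) of limma. A gene passed the test at a Benjamini-Hochberg adjusted p below 0.05 over all 13576 probe sets tested. The design has 2 tumors a group and cannot reach an exact two-sided p below 0.333 for a value tested alone.

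Markers of other cell types were uneven between the tumors. All 12 macrophage and leukocyte markers were highest in EGFP tumor 2, with summed signals of 1028 and 8397 for EGFP against 1815 and 1959 for p62-EGFP. All 8 NK and T cell markers were also highest there (sums of 73.1 and 3092 against 71.6 and 76.4). Of 9 epithelial markers, 7 were lowest in EGFP tumor 2 (sums of 2137 and 1172 against 2149 and 3057). All 8 skeletal muscle markers were highest in p62-EGFP tumor 1 (sums of 36.8 and 479 against 3846 and 46.5). The epithelial transcript Krt18 read 729.6 and 254 with EGFP and 545 and 627 with p62-EGFP, and Epcam 351 and 109 against 361 and 660.3. Krt19 went the other way within the EGFP pair, at 93.6 and 156.2 against 332.9 and 341.3, and was lowest in EGFP tumor 1. The endothelial and mast cell lists differed by group. Of 9 endothelial markers, 8 read lower in each p62-EGFP tumor than in either EGFP tumor (sums of 482 and 596 against 235 and 305). So did 4 of 5 mast cell markers (594 and 519 against 189 and 124), beside 22.1% of all tested genes. The endothelial markers Tie1 and Emcn did not pass the filter on low values, and of the 7 endothelial markers tested 6 read lower. Of 6 fibroblast markers, 5 were highest in EGFP tumor 2 (950.0 and 3226 against 2015 and 2773), and the 3 red cell precursor markers measured were near background (23.6 and 22.3 against 11.9 and 17.5). No marker of these lists was at 0 in any tumor, but several were near it in some tumors. Among these were Cldn7 (0.7 and 0.5 against 12.7 and 23.4), Myh4 (0.4 and 3.5 against 346.2 and 3.9) and the keratin Krt7 (7.2 and 5.6 against 8.2 and 5.3). Cldn7 is among the 7 epithelial markers lowest in EGFP tumor 2. In whole tumors, fewer cells of a type and less RNA per cell cannot be told apart.

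The mitosis genes were at similar levels in EGFP tumor 1 and both p62-EGFP tumors, and lower in EGFP tumor 2. Of the 45 genes, 36 had their lowest signal in EGFP tumor 2, where 37.8% of all tested genes had theirs. None of the 45 passed the test between groups (limma, 0 of 45), where 0.051% of tested genes did; of probe sets 0.0884% passed, 0.0589% as higher and 0.0295% as lower. At an unadjusted p below 0.05, 4 were higher in p62-EGFP tumors (Birc5, Ect2, Nuf2 and Top2a) and 0 lower, beside 8.5% and 6.3% of tested genes. The median log2 difference of the 45 was 0.16, and that of all tested genes 0.01. For 13 of the 45 both p62-EGFP values exceeded both EGFP values, as for 26.4% of tested genes, and for 2 they were below both, as for 22.1%; the 2 became 4 with quantile normalization and 1 with median centring.

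**Figure D1:**
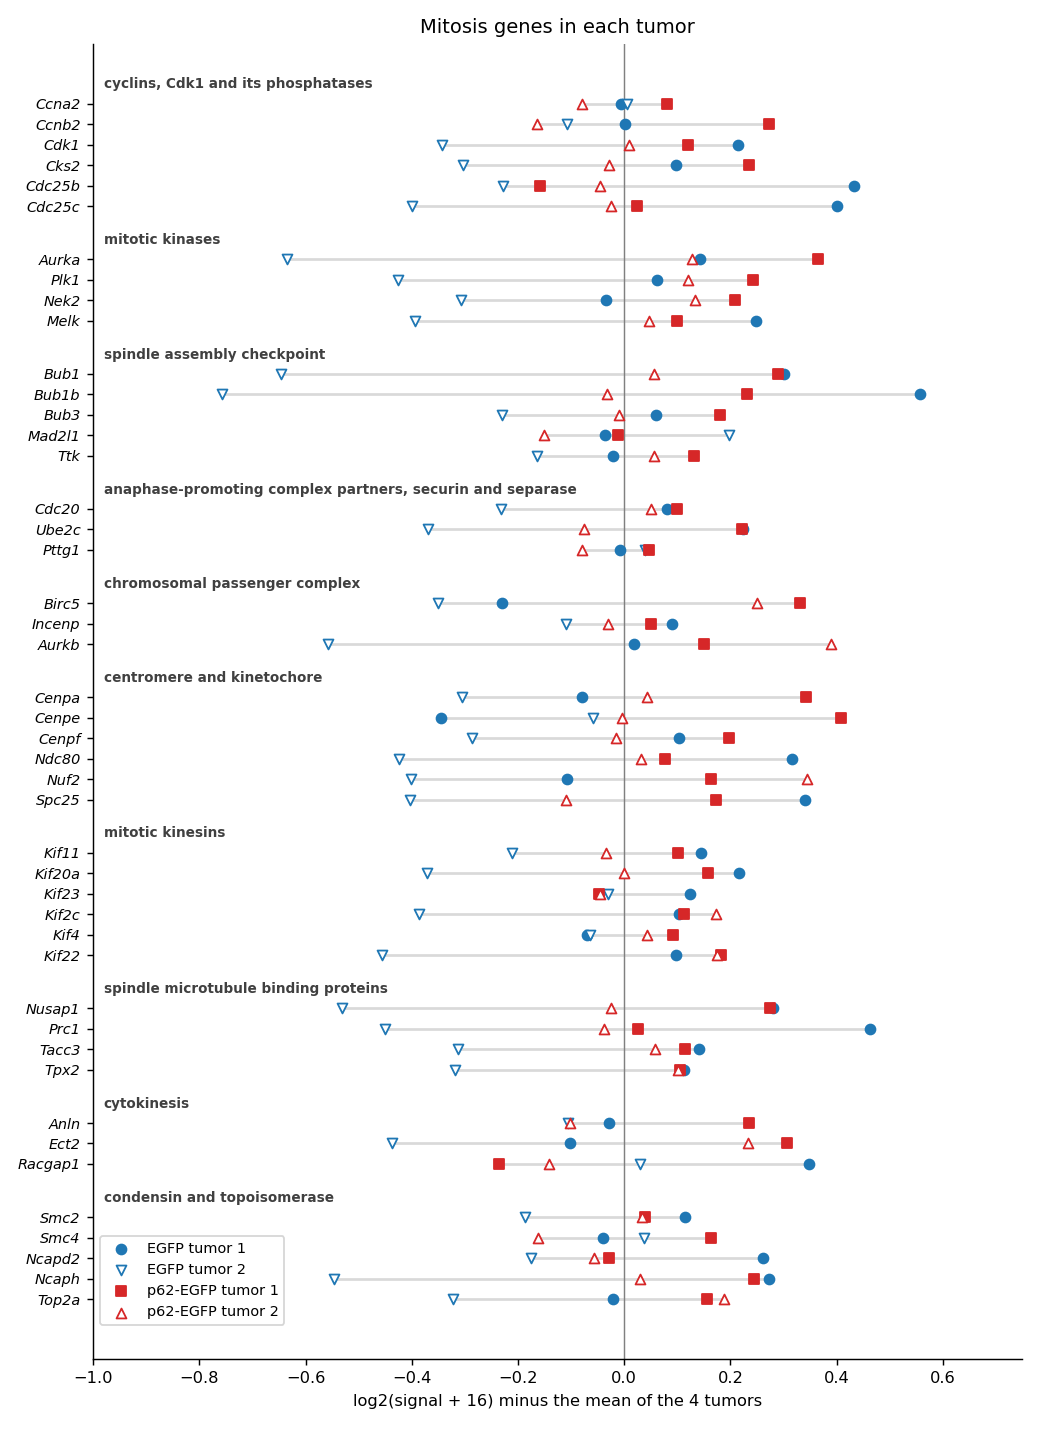
Signal of each of the 45 mitosis genes in the 4 tumors, as log2(signal + 16) minus the mean of the 4 tumors, with genes grouped by role. Open blue triangles, EGFP tumor 2, are leftmost for 36 of the 45 genes, and the other 3 tumors lie close together for most.

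Comparing the tumors in pairs showed where the small group difference lay. EGFP tumor 2 was below EGFP tumor 1 for 39 of the 45 genes (58.3% of tested genes), by a median of -0.39 on the log2 scale. Against EGFP tumor 1, the median difference was 0.02 for p62-EGFP tumor 1 and -0.11 for p62-EGFP tumor 2. Against EGFP tumor 2, it was 0.48 and 0.35, while all tested genes had a median of 0.07 in both comparisons. Both p62-EGFP tumors exceeded EGFP tumor 2 for 38 of 45 genes (48.3% of tested genes), and both exceeded EGFP tumor 1 for 13 (38.2%), while both were below it for 21 (42.9%). EGFP tumor 1 had the highest signal of the 4 tumors for 21 genes (31.6% of tested genes) and p62-EGFP tumor 1 for 19 (21.5%). For 19 genes the p62-EGFP tumors lay between a lower EGFP tumor 2 and a higher EGFP tumor 1 (13.9% of tested genes). The gap between the EGFP tumors exceeded the difference of group means for 34 of 45 genes (57.0% of tested genes). The p62-EGFP tumors differed less from each other, with tumor 2 below tumor 1 for 38 of the 45 genes (47.7% of tested genes) by a median of -0.08.

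**Figure D2:**
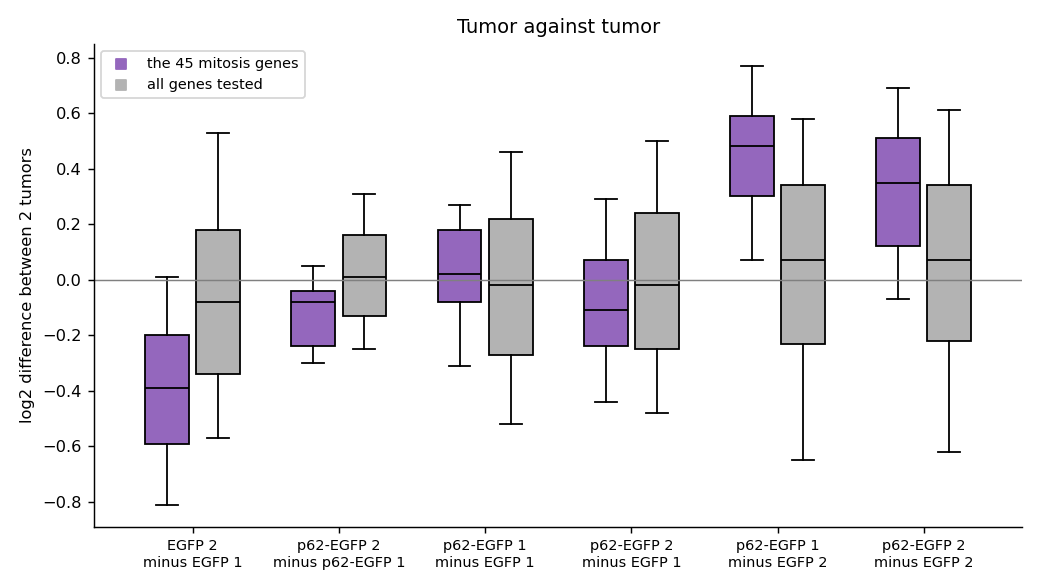
Log2 differences between individual tumors over the 45 mitosis genes and over all tested genes. Boxes span the quartiles, the line is the median and whiskers reach the 10th and 90th percentiles; the mitosis genes are shifted where EGFP tumor 2 enters the comparison, with medians of -0.39, 0.48 and 0.35.

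The outcome of the test followed the same tumor. Without EGFP tumor 2 the median over the 45 genes was -0.01, and without EGFP tumor 1 it was 0.41. Without EGFP tumor 1, 17 of the 45 genes passed as higher and 0 as lower (limma), where 11.4% and 10.8% of tested genes passed. The 17 were Aurka, Aurkb, Birc5, Bub1, Bub1b, Cdk1, Cenpa, Cks2, Ect2, Kif22, Kif2c, Ncaph, Nuf2, Nusap1, Plk1, Prc1 and Top2a. Without EGFP tumor 2, Birc5 alone passed as higher (log2 difference 0.52, limma adjusted p = 0.0326), where 5.12% of tested genes did. Prc1 (-0.47, adjusted p = 0.0381) and Racgap1 (-0.54, adjusted p = 0.0364) passed as lower in limma, where 4.58% did, so Prc1 passed in opposite directions in these 2 fits. In both of these fits only the p62-EGFP pair gives a spread, and the single EGFP tumor is assumed to vary as that pair did. Over the 45 genes the median gap within a pair was 0.39 for EGFP and 0.12 for p62-EGFP, so these fits used the narrower spread. In the fits without a p62-EGFP tumor, only the wider EGFP pair gives a spread. Without either p62-EGFP tumor 0 genes passed. EGFP tumor 2 was also the tumor with the highest leukocyte markers and the lowest summed epithelial markers. The part of these and of the endothelial and mast cell markers in the mitosis signals was not tested.

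Regulatory sequence was examined because these genes share promoter elements that the list did not use. RefSeq promoter windows of GRCm38.p6, from 250 bases before to 50 after a start site, were held for 38 of the 45 genes (41 windows). Aurkb, Ccna2, Cdc25c, Incenp, Kif20a, Smc4 and Tpx2 had none. The windows were searched on both strands for the CCAAT box (CCAAT), the CHR element (TTTGAA) and its variant (TTTAAA). Matches were counted for each motif on its own, and neighbouring matches of different motifs can share bases. The 7 windows below are shown up to the start site, 150 bases each, 5′ to 3′ in the direction of transcription, with matches to these 3 motifs on either strand in capitals. They are those of the 4 genes of smallest unadjusted p, each with higher signals in p62-EGFP tumors, of the kinases Cdk1 and Plk1, and of Racgap1, the gene with the largest negative difference. Ect2 had 2 windows, and the upstream start was taken.
Birc5, chr11:117849087-117849236, plus strand: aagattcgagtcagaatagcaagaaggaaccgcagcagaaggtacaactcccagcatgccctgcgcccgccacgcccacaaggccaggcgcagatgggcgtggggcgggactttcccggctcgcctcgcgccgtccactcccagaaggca
Ect2, chr3:27153879-27154028, minus strand: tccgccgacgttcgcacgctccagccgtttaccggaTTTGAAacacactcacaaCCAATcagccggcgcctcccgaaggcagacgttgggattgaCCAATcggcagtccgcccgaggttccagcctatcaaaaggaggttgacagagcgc
Nuf2, chr1:169531465-169531614, minus strand: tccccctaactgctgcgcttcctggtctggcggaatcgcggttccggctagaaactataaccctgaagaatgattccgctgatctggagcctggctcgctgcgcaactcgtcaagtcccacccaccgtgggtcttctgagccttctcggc
Top2a, chr11:99024190-99024339, minus strand: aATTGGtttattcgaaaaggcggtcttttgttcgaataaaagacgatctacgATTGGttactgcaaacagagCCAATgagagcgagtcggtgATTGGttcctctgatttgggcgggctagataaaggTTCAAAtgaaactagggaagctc
Cdk1, chr10:69352913-69353062, minus strand: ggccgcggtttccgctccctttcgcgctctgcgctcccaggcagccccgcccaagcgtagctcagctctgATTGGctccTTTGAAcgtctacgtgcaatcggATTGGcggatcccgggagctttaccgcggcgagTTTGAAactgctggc
Plk1, chr7:122159285-122159434, plus strand: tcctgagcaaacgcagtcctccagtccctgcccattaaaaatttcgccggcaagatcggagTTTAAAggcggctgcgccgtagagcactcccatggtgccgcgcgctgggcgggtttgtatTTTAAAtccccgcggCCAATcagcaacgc
Racgap1, chr15:99651657-99651806, minus strand: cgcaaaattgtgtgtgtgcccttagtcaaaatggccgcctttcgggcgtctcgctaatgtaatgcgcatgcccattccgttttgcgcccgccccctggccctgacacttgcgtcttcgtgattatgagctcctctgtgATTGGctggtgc
Top2a showed 4 CCAAT boxes and 1 TTTGAA in this stretch, and Cdk1 2 of each. Ect2 showed 2 CCAAT boxes and 1 TTTGAA, Plk1 1 CCAAT box and 2 TTTAAA, and Racgap1 1 CCAAT box. Birc5 and Nuf2 showed none of the 3 motifs in the stretch shown. In the whole 300-base windows, Plk1 and Racgap1 each held 1 TTTGAA, Birc5 held 1 TTTAAA and Nuf2 still held none. A match of letters is a description of the window and not evidence that a factor was bound.

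Over the whole 300-base windows, a CCAAT box was present in 30 of 41 windows of the mitosis genes (73.2%) and in 37.4% of all 32851 windows. A TTTGAA was present in 28 of 41 (68.3%) and in 17.9% of all windows. Within 50 bases of the start site TTTGAA was present in 25 of 41 (61.0%) and in 4.94% of all windows. The variant TTTAAA was present in 8 of 41 (19.5%) and in 13.2% of all. A CCAAT box was in 10 of 13 windows of genes above both EGFP tumors, in 18 of 26 of genes with overlapping groups and in 2 of 2 of genes below both. TTTGAA was in 9 of 13, 17 of 26 and 2 of 2 windows of the same groups, and TTTAAA in 5 of 13, 3 of 26 and 0 of 2. These shares were not tested against each other.

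**Figure D3:**
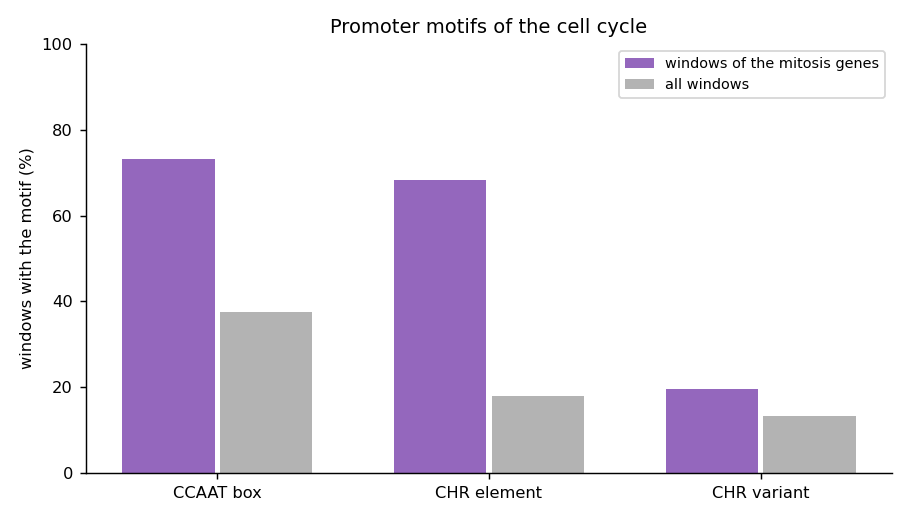
Share of promoter windows with a CCAAT box, a CHR element and the CHR variant, in percent, for the 41 windows of the mitosis genes and for all 32851 windows. The shares are 73.2% against 37.4%, 68.3% against 17.9% and 19.5% against 13.2%.

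The cyclins, Cdk1 and its phosphatases were not separated by group. Of 6 genes measured, 0 passed the test, and the median log2 difference was 0.05. None lay above or below both EGFP tumors, beside 26.4% and 22.1% of tested genes. Cdk1, the kinase that drives mitotic entry, read 1387 and 936 with EGFP and 1296 and 1200.0 with p62-EGFP (log2 difference 0.13, SE 0.20, limma adjusted p = 0.787). EGFP tumor 2 was the low tumor, and the p62-EGFP tumors lay below EGFP tumor 1. Its promoter window above holds the CHR element in duplicate. Cks2, a Cdk1-binding subunit, read 2185 and 1650.4 against 2406 and 1999 (log2 difference 0.21, SE 0.17, limma adjusted p = 0.593), again with overlapping groups and a difference of 0.01 without EGFP tumor 2. Cyclin A2 (Ccna2) was nearly equal in all tumors, at 1039.5 and 1048 against 1104 and 986, and did not share the low value of Cdk1 in EGFP tumor 2. Cyclin B2 (Ccnb2) read 1009 and 934 against 1221 and 897, highest in p62-EGFP tumor 1 and lowest in p62-EGFP tumor 2. Of the phosphatases that activate Cdk1, Cdc25b read 298 and 182 against 192 and 209 (log2 difference -0.21, SE 0.26, limma adjusted p = 0.727), with EGFP tumor 1 above the other 3. Cdc25c read 129 and 67.4 against 95.9 and 92.2, with EGFP tumors on either side of the p62-EGFP pair.

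Transcripts of the mitotic kinases had higher means in the p62-EGFP tumors than in the EGFP tumors, without passing the test. All 4 differences were positive, as were those of 4056 of the 7846 tested genes, and their median was 0.35. Of the 4, 2 lay above both EGFP tumors, beside 26.4% of tested genes. Aurka, which matures centrosomes, read 423 and 239.9 with EGFP and 496 and 418 with p62-EGFP (log2 difference 0.49, SE 0.29, limma adjusted p = 0.467). Its EGFP tumor 2 was far below the other 3, and p62-EGFP tumor 2 was slightly below EGFP tumor 1, so the groups overlapped. Without EGFP tumor 2 its difference was 0.10, and without EGFP tumor 1 0.88. Plk1, the Polo kinase, read 467 and 329 against 532 and 487 (log2 difference 0.36, SE 0.20, limma adjusted p = 0.457), and both p62-EGFP tumors were higher than either EGFP tumor. The difference of Plk1 was 0.12 when EGFP tumor 2 was left out. Nek2, a kinase of centrosome separation, read 194 and 158 against 233 and 220.2 (log2 difference 0.34, SE 0.18, limma adjusted p = 0.421), also without overlap, and its difference was 0.21 without EGFP tumor 2. Melk, a kinase of proliferating cells, read 485 and 305 against 436 and 419.8, with EGFP tumor 1 the highest. Its difference of 0.14 became -0.18 without EGFP tumor 2.

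The spindle assembly checkpoint genes included Bub1b, the gene with the widest gap between the EGFP tumors on the log2 scale among the 45. None of the 5 passed the test, their median difference was 0.19, and only Ttk lay above both EGFP tumors, beside 26.4% of tested genes. Bub1b, which encodes the checkpoint protein BubR1, read 553 and 213 with EGFP and 438 and 362 with p62-EGFP (log2 difference 0.20, SE 0.43, limma adjusted p = 0.849). The p62-EGFP values lay between those of the EGFP tumors, and the difference was 0.86 without EGFP tumor 1 and -0.46 without EGFP tumor 2. Bub1, its kinase relative at the kinetochore, read 716 and 364 against 711 and 602 (log2 difference 0.35, SE 0.32, limma adjusted p = 0.64), with EGFP tumor 1 level with p62-EGFP tumor 1. Bub3, the binding partner of both, read 1716 and 1401 against 1869 and 1635 (log2 difference 0.17, SE 0.14, limma adjusted p = 0.59). Mad2l1, the subunit that holds Cdc20 inactive, went the other way in EGFP tumor 2. It read 1019 and 1202 against 1037 and 940.3 (log2 difference -0.16, SE 0.13, limma adjusted p = 0.598), highest in EGFP tumor 2 and lowest in p62-EGFP tumor 2. Ttk, the kinase Mps1 that starts the signal, read 242 and 217 against 270.4 and 256, a small gap with both p62-EGFP tumors on top.

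Genes acting with the anaphase-promoting complex were not separated by group. Of 3 measured, 0 passed and all had overlapping groups, with a median difference of 0.15. Cdc20, the activator of the complex, read 1849 and 1485 with EGFP and 1874 and 1809.9 with p62-EGFP (log2 difference 0.15, SE 0.13, limma adjusted p = 0.611), and Ube2c, its ubiquitin-conjugating enzyme, 1406 and 926 against 1403 and 1139 (log2 difference 0.15, SE 0.23, limma adjusted p = 0.787). In both, EGFP tumor 2 was the lowest of the 4 tumors and EGFP tumor 1 was within the range of the p62-EGFP pair or just above it. Securin (Pttg1), the inhibitor of separase, read 1183 and 1223 against 1229 and 1126, within a narrow band in all 4 tumors.

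The chromosomal passenger complex corrects wrong attachments and positions the cleavage furrow, and it contained the gene that differed most. Survivin (Birc5), its targeting subunit, read 815 and 748 with EGFP and 1209.5 and 1142 with p62-EGFP (log2 difference 0.58, SE 0.12, limma adjusted p = 0.2). Both p62-EGFP tumors were well above both EGFP tumors, and for this gene the EGFP tumors were close together. Its unadjusted p of 0.00361 was the smallest of the 45. Without each tumor in turn the difference ranged from 0.52 to 0.64. The kinase of the complex, Aurkb, read 566 and 374 against 622 and 737 (log2 difference 0.54, SE 0.23, limma adjusted p = 0.36), with p62-EGFP tumor 2 highest and EGFP tumor 2 lowest. Without EGFP tumor 2 the difference of Aurkb was 0.25. The scaffold Incenp did not share this order, at 1515 and 1319 against 1474 and 1394 (log2 difference 0.02, SE 0.11, limma adjusted p = 0.949). Of the 3 subunits 2 lay above both EGFP tumors, beside 26.4% of all tested genes, and none passed; their median difference was 0.54. Birc5 and Aurkb both lie on chromosome 11, whose values are given below.

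**Figure D4:**
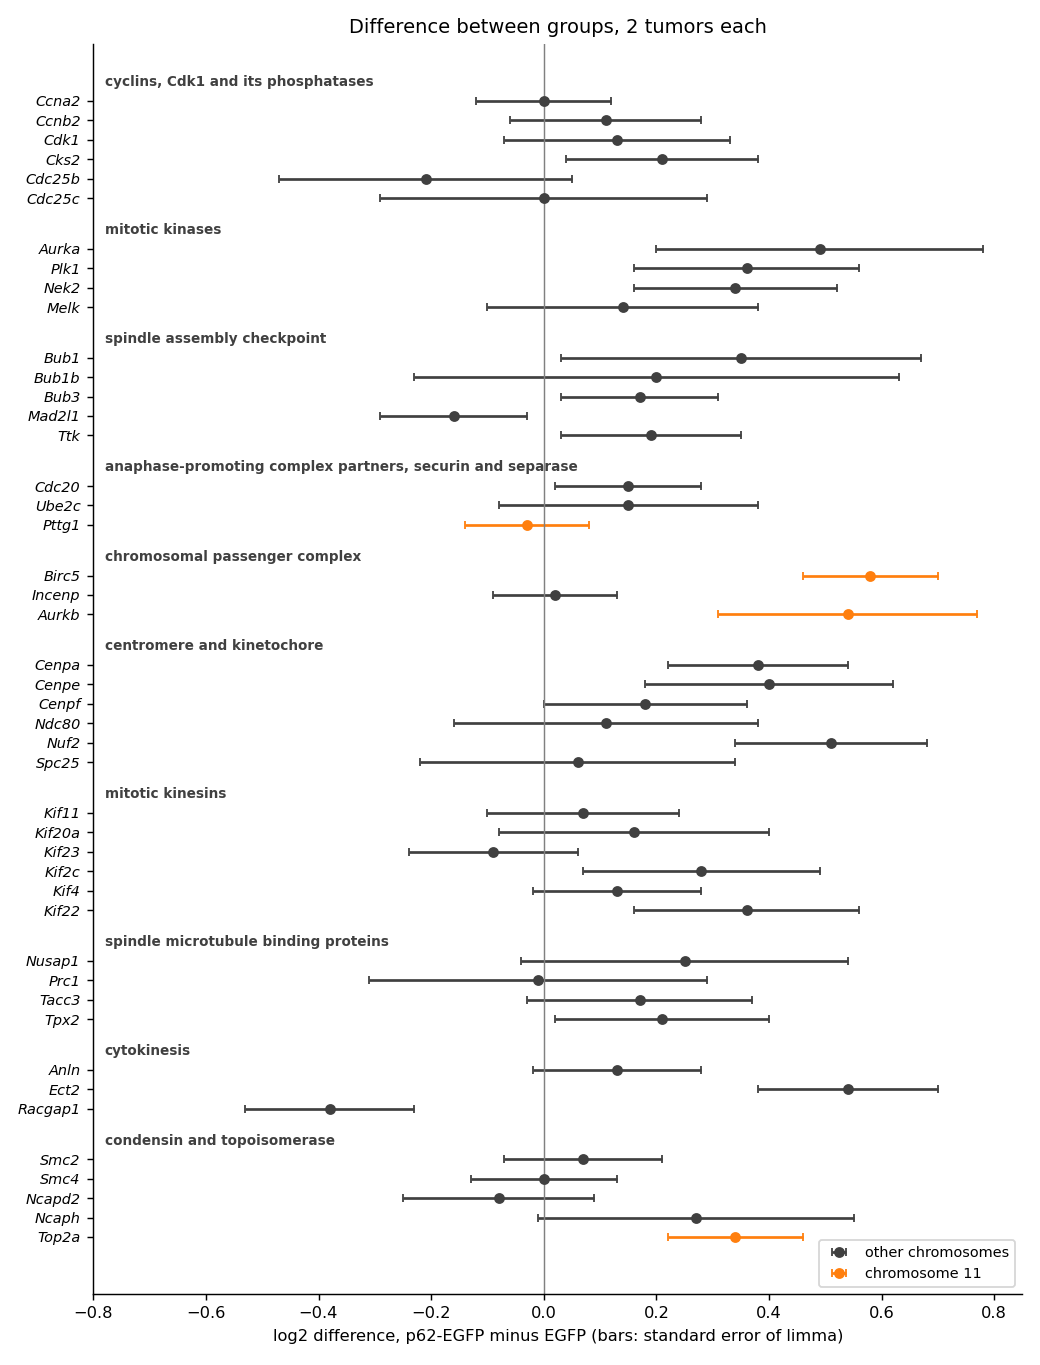
Log2 difference between the p62-EGFP and EGFP means for each of the 45 genes, with the standard error of limma as bars and genes of chromosome 11 in orange. Birc5 has the highest value, 0.58, and Racgap1 the lowest, -0.38, and no gene passed the test.

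All 6 centromere and kinetochore genes measured had positive differences, as did 4056 of the 7846 tested genes, and their median was 0.28. Of the 6, 3 lay above both EGFP tumors without passing the test, beside 26.4% of tested genes. Without EGFP tumor 2 the differences were -0.26 for Ndc80, -0.31 for Spc25 and -0.01 for Cenpf. They were 0.36 for Nuf2, 0.27 for Cenpa and 0.55 for Cenpe. Nuf2, a subunit of the Ndc80 complex that grips microtubules, read 387 and 313 with EGFP and 470.3 and 535 with p62-EGFP (log2 difference 0.51, SE 0.17, limma adjusted p = 0.301). Its partner Ndc80 read 265 and 152 against 222 and 214 (log2 difference 0.11), with EGFP tumor 1 the highest of the 4, so the subunits of the complex were not alike across tumors. Spc25, of the same complex, read 626 and 367 against 556 and 454, also highest in EGFP tumor 1. Cenpa, the centromeric histone, read 939 and 800.0 against 1263 and 1023 (log2 difference 0.38, SE 0.16, limma adjusted p = 0.35), with no overlap between groups. Cenpe, a kinetochore motor, read 109 and 136 against 194 and 142 and was lowest in EGFP tumor 1, unlike most of the list. Cenpf read 785 and 595 against 839 and 721 with overlapping groups.

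Mitotic kinesins had a median difference of 0.14 in 6 genes, and 0 passed the test. Of the 6, 3 were above both EGFP tumors and 1 was below both, beside 26.4% and 22.1% of tested genes. Kif22, a chromosome arm motor, read 1333 and 902 with EGFP and 1414 and 1407 with p62-EGFP (log2 difference 0.36, SE 0.20, limma adjusted p = 0.447). EGFP tumor 2 was the outlying tumor, and EGFP tumor 1 was slightly below the p62-EGFP pair. Kif2c, the microtubule depolymerase MCAK, read 424 and 297 against 427 and 446 (log2 difference 0.28, SE 0.21, limma adjusted p = 0.548), with EGFP tumor 1 level with p62-EGFP tumor 1. The difference without EGFP tumor 2 was 0.08 for Kif22 and 0.04 for Kif2c. Kif11, the motor that separates spindle poles, read 850.2 and 661 against 825 and 749, and Kif20a, a central spindle motor, 349.6 and 227 against 335 and 299. EGFP tumor 1 was highest in both. Kif4 differed by little (271 and 272 against 305 and 295), and Kif23, the central spindle motor that pairs with Racgap1, read 429 and 384 against 379 and 379.6.

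The spindle microtubule binding proteins followed EGFP tumor 2 in every case. All 4 genes were lowest in EGFP tumor 2 and highest in EGFP tumor 1, beside 37.8% and 31.6% of tested genes. Of all 45 genes, 36 were lowest in EGFP tumor 2 and 21 highest in EGFP tumor 1. Of the 4, 0 passed the test, and their median difference was 0.19. Nusap1, which bundles spindle microtubules, read 1134 and 639 with EGFP and 1129 and 915 with p62-EGFP (log2 difference 0.25, SE 0.29, limma adjusted p = 0.703). Tpx2, the activator of Aurora A, read 486 and 357 against 484 and 483 (log2 difference 0.21, SE 0.19, limma adjusted p = 0.632), with 3 tumors almost equal. Prc1, the central spindle bundler, read 1526 and 802 against 1122 and 1073, and its difference went from -0.47 without EGFP tumor 2 to 0.44 without EGFP tumor 1. Tacc3, which stabilizes kinetochore fibres, read 376 and 270.0 against 369 and 354.

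Cytokinesis genes held opposite differences. Ect2, the exchange factor that activates RhoA at the cleavage site, read 590.0 and 465 with EGFP and 789 and 749 with p62-EGFP (log2 difference 0.54, SE 0.16, limma adjusted p = 0.266), with both p62-EGFP tumors above both EGFP tumors. Racgap1, the GTPase-activating protein that recruits Ect2 to the central spindle, read 1106 and 884 against 733 and 784 (log2 difference -0.38, SE 0.15, limma adjusted p = 0.347), with both p62-EGFP tumors below both EGFP tumors. Kif23, its partner in centralspindlin, had the same order of groups with a difference of -0.09. These were the 2 genes of the 45 that lay below both EGFP tumors. Without EGFP tumor 2 the difference was 0.37 for Ect2 and -0.54 for Racgap1, and without EGFP tumor 1 it was 0.71 and -0.22. Anillin (Anln), which anchors the contractile ring, read 1149 and 1088 against 1383 and 1092.

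Condensin genes, which compact chromosomes, were not separated by group. In this list 1 of 5 genes, Top2a, was above both EGFP tumors, beside 26.4% of tested genes. None was past the test, and the median difference was 0.07. Topoisomerase IIα (Top2a), which untangles sister chromatids, read 2449 and 1984 with EGFP and 2770.1 and 2833 with p62-EGFP (log2 difference 0.34, SE 0.12, limma adjusted p = 0.306). It also lies on chromosome 11, and with quantile normalization of the arrays its difference was 0.20, and without EGFP tumor 2 it was 0.19. Ncaph, a condensin I subunit, read 896 and 501 against 877 and 754 (log2 difference 0.27, SE 0.28, limma adjusted p = 0.676), with EGFP tumor 2 low. Ncapd2, another condensin I subunit, read 1397 and 1028 against 1139.9 and 1118. The core subunits Smc2 and Smc4 read 971 and 785 against 920.4 and 917 and 2146 and 2263 against 2473 and 1970.2.

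Chromosome of origin moved with several of these differences. The 697 tested genes of chromosome 11 had a median difference of 0.30, the highest of the autosomes, and those of chromosomes 8 and 15 had -0.22 and -0.21, the lowest. Birc5, Aurkb, Top2a and Pttg1 lie on chromosome 11, with differences of 0.58, 0.54, 0.34 and -0.03. The 41 other genes had a median of 0.15. After the chromosome median was subtracted, the difference was 0.28 for Birc5, 0.24 for Aurkb and 0.04 for Top2a. Racgap1 lies on chromosome 15, and its difference went to -0.17. The part of the chromosome in these differences was not tested. Ect2 on chromosome 3 and Nuf2 on chromosome 1 kept 0.50 and 0.36. Over the 45 genes the median was 0.14 after subtraction, with 11 genes above both EGFP tumors and 1 below both, beside 22.8% and 21.6% of tested genes.

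**Figure D5:**
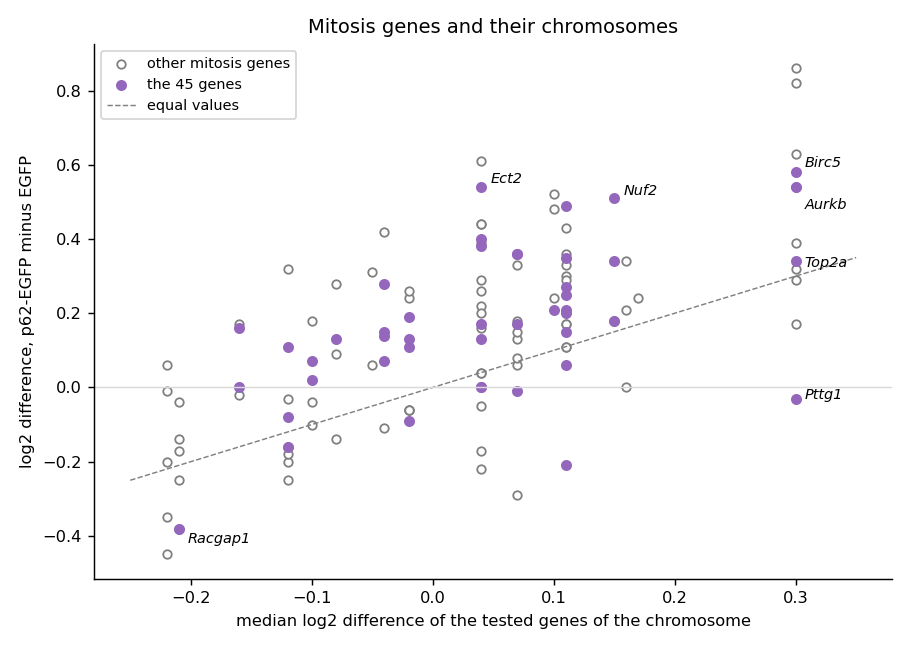
Log2 difference of each mitosis gene against the median log2 difference of all tested genes of its chromosome, for the 45 genes (filled) and 82 other mitosis genes (open). On the dashed line both are equal; the column at 0.30 is chromosome 11, where Birc5 and Aurkb lie above the line and Pttg1 below it.

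Further probe sets gave a repeat measure for 22 of the genes. Of 29 further probe sets that passed the filter, 19 had the same sign of difference as the probe set used. The second probe set of Aurkb had a difference of 0.62, and those of Kif22 had 0.66 and 0.67 against 0.36 for the brightest. Racgap1 had -0.26 in its second probe set. For Tacc3 the brightest probe set had 0.17 and the others -0.08 each, and for Incenp the others had -0.11 and -0.32, so no sign is firm for either. The sign also differed in a further probe set of Bub3 (-0.06 against 0.17) and of Kif11 (-0.06 against 0.07). The same held for Pttg1 (0.09 against -0.03) and Smc4 (-0.13 against 0.0). For 6 genes (Aurkb, Cdc20, Incenp, Kif22, Kif2c and Ncaph) the probe set used is of the x_at type, which can bind related transcripts. A probe set shares its RNA with the others of its gene, so this is a check on probes and not on tumors.

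A wider list of 112 other mitosis genes, chosen by function, had 83 measured and 82 tested. None passed the test (limma). At an unadjusted p below 0.05, 6 of 82 were higher and 0 lower, beside 8.5% and 6.3% of all tested genes. Their median difference was 0.17. Of the 82, 22 were above and 5 below both EGFP tumors, beside 26.4% and 22.1% of tested genes, and 58 were lowest in EGFP tumor 2, beside 37.8%. The 6 of smallest unadjusted p all read higher in each p62-EGFP tumor than in either EGFP tumor. They were chosen by p from these same values, so their separation is no further support. Hmmr, a spindle assembly factor, read 293 and 248 with EGFP and 509.8 and 493 with p62-EGFP (log2 difference 0.86, SE 0.16, limma adjusted p = 0.188), and Anapc11, the RING subunit of the anaphase-promoting complex, 401 and 342 against 653 and 680.0 (log2 difference 0.82, SE 0.15, limma adjusted p = 0.188). Both lie on chromosome 11, as does Spag5, a spindle and kinetochore protein (455 and 322 against 624 and 579). With the chromosome median subtracted the differences of Hmmr, Anapc11 and Spag5 were 0.55, 0.52 and 0.33, the last from 0.63. Of the other 3, Cks1b, a Cdk1-binding subunit, read 2022 and 1984 against 2407 and 2487, Depdc1a 206 and 163 against 305 and 270.3 and Cdc26, another subunit of the complex, 204 and 197 against 264 and 282. All 9 tested genes of this list on chromosome 11 had positive differences, with a median of 0.54, and the 73 on other chromosomes had a median of 0.11.

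The counts by function that follow stand beside 26.4% of all tested genes above both EGFP tumors, 22.1% below both and 37.8% lowest in EGFP tumor 2. The other kinetochore genes had a median of 0.24 over 21, with 8 above and 2 below both EGFP tumors. Other spindle and cytokinesis genes had 0.25 over 18, with 5 above and 0 below, and 17 of the 18 were lowest in EGFP tumor 2. Subunits and regulators of the anaphase-promoting complex had 0.13 over 15, with 4 above and 0 below. Cohesin genes, which hold sister chromatids, had -0.05 over 10, with 2 above and 3 below, and only 2 of the 10 were lowest in EGFP tumor 2. The 3 other condensin genes had 0.34, with 1 above and 0 below. Mitotic entry and transcription factors had 0.08 over 15, with 2 above and 0 below. Among them Foxm1, an activator of many of these genes, read 354 and 245 with EGFP and 229.7 and 262 with p62-EGFP (log2 difference -0.25), and Mybl2, its partner at MuvB promoters, 138 and 77.2 against 125 and 113 (0.17). The proliferation antigen Mki67 read 2346 and 1849 against 2266 and 2134 (0.08), with EGFP tumor 2 lowest and the p62-EGFP tumors below EGFP tumor 1. These 3 genes were named after their values were seen.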

How the data were processed

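RNA of 4 tumors, 2 per group, was hybridized to Affymetrix Mouse Genome 430A 2.0 arrays, 1 array per tumor, from 6 ug of total RNA (per the labels' protocols). Values deposited by the authors are linear signal intensities; MAS5 is the tool in the submitters' processing notes, and its version and scaling settings are not given in the sources used here. After trimming 2% at each end the mean intensity was 150.04 on every array, so the deposited values were used without further scaling. Of 22690 probe sets, 64 controls were left out. Of the rest, 20380 had 1 gene symbol, 691 several and 1555 none, in platform annotation that can be old. The 45 genes reported were matched by symbol, and their chromosomes were taken through Entrez identifiers from the RefSeq table of GRCm38.p6. The sources give no build for the array, and the only coordinates printed are those of the RefSeq promoter windows.

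Intensities were transformed as log2(signal + 16), which understates changes of dim probe sets. Probe sets with a mean log2 value at or above the 40th percentile, 13576 in all and 7846 genes through their brightest probe set, were tested in R 4.3.3 with limma 3.58.1 (lmFit, then eBayes with a variance trend). P-values are two-sided and were adjusted over all of these probe sets by Benjamini-Hochberg. The submitters' gene selection tool was not installed here, and their list was not used here. The fit was tested on simulated data with known changes. The 4 arrays limit the precision, with 2 residual degrees of freedom. Gene lists are described by counts and medians beside those of all tested genes, with no test of a list.

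Genes given tumor by tumor were those of smallest p in each role, a set of core regulators and further genes of the larger roles. All 45 genes are named, and some were given in more detail than that rule asked after their values were seen. The genes and lists were chosen with earlier results of these data known. Alternatives covered scaling, pseudocount, filter, variance model, a replicate block, averaging of probe sets, chromosome medians and leaving out each tumor. Summaries and figures used Python 3.11.15, numpy 2.4.6, pandas 2.3.3 and matplotlib 3.10.9.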

Additional observations from a re-analysis of the deposited data

How the results depend on the processing

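None of the 45 genes passed the limma test in any alternative that kept all 4 tumors. Changes to the filter or the variance model and the replicate block leave every difference as it was. Comparisons under those settings are included in the 420 counted next, and their sign could not turn. The sign of the difference at 2 decimals was kept in all but 7 of 420 comparisons with the main value for 42 genes. The other 3, Ccna2, Cdc25c and Smc4, had differences of 0 at 2 decimals and so no direction; with all tumors kept they ran from -0.04 to 0.04, -0.01 to 0.16 and -0.10 to 0.04. The 7 were small differences: Incenp with quantile normalization (-0.01) and with averaged probe sets (-0.13), Pttg1 with median centring (0.01) and with averaged probe sets (0.02), Prc1 with median centring (0.03), and Spc25 (-0.05) and Ncapd2 (0.04) with chromosome medians subtracted. The number of genes below both EGFP tumors, 2, was 4 with quantile normalization, 1 with median centring and 1 with chromosome medians subtracted. The number of probe sets past the threshold, 12, was 6 without the filter and 7 with a filter at the 60th percentile. With the replicate number as a block it was 37, with 0 of the 45 genes among them. The sources used here do not say whether same-numbered tumors form pairs. Deviations of same-numbered tumors correlated at 0.08 over probe sets, which cannot exclude a shared batch or animal. Among the 45 genes, tumor 2 was below tumor 1 for 39 with EGFP and for 38 with p62-EGFP.

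Without each tumor in turn, the number of probe sets past the threshold ran from 0 to 2842, the median over the 45 genes from -0.01 to 0.41, the genes above both EGFP tumors (or the tumor left) from 13 to 38, and those below from 2 to 21. Among the 42 genes the sign turned for 17 without EGFP tumor 2, for 3 without EGFP tumor 1, for 4 without p62-EGFP tumor 1 and for 2 without p62-EGFP tumor 2, and it held in all 4 fits for 19 genes. Ranges of log2 differences over these 4 fits, for the 23 genes whose sign turned, were Anln -0.03 to 0.30, Bub1 -0.13 to 0.82, Bub1b -0.46 to 0.86, Ccnb2 -0.11 to 0.33, Cdc20 -0.01 to 0.31, Cdc25b -0.54 to 0.13, Cdk1 -0.15 to 0.41, Cenpf -0.01 to 0.38, Incenp -0.08 to 0.12, Kif11 -0.11 to 0.24, Kif20a -0.14 to 0.45, Melk -0.18 to 0.47, Ncapd2 -0.30 to 0.13, Ncaph -0.14 to 0.68, Ndc80 -0.26 to 0.48, Nusap1 -0.15 to 0.66, Prc1 -0.47 to 0.44, Pttg1 -0.09 to 0.03, Smc2 -0.08 to 0.22, Spc25 -0.31 to 0.44, Tacc3 -0.06 to 0.40, Tpx2 -0.01 to 0.42 and Ube2c -0.15 to 0.44. For the 3 genes with no direction they were Ccna2 -0.08 to 0.08, Cdc25c -0.40 to 0.40 and Smc4 -0.16 to 0.17. The cause was not tested. With 2 tumors a group, a miss of the threshold does not show that a gene was unchanged.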
